A study of Mus musculus with 4 samples.

Results

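Chemokines are small secreted or membrane-tethered proteins that guide leukocytes and other cells through G protein-coupled receptors. A few are induced by interferon, others by inflammatory signals acting through NF-kB, and Cxcl12 is made constitutively by many stromal and bone cells. In bone tumours they are studied because metastatic cells meet chemokine gradients in the lung and because tumour-derived chemokines draw in myeloid cells. The 10 chemokine genes described here, of 18193 named genes on the arrays, are Cxcl10 and Ccl5, which are classed as interferon-inducible, and Ppbp, Cxcl12, Ccl2, Ccl7, Cxcl1, Cxcl5, Cxcl16 and Cx3cl1. They were read from 18 of 45101 probe sets, and each gene was represented by its probe set with the highest mean over the arrays.

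The study profiled K7M2, a highly metastatic osteosarcoma line of the mouse, on 4 one-colour arrays, with the cells grown in DMEM with serum. In 1 array the cells over-expressed GFP alone, and in 3 arrays, replicates 1 to 3, they over-expressed ezrinT567A-GFP, an ezrin that cannot be phosphorylated at its regulatory C-terminal threonine, fused to GFP. All 4 cell samples therefore carried a GFP construct. Neither the promoter driving it nor whether replicates were separate cultures or clones is stated in the labels. The question was how the phosphorylation-deficient ezrin changes gene expression relative to GFP.

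The 10 genes were selected on the expression differences between ezrinT567A-GFP and GFP, with this comparison already known, so those differences are given as a description and carry no test. Values are log2 expression after RMA, differences are ezrinT567A-GFP minus GFP on that scale, and a difference of 1 is 2-fold. The levels of different chemokines are not ranked, because probe sets differ in brightness. Dim, bright and brighter than the median gene refer only to array signal. In bulk samples such as these, fewer cells making a transcript and less transcript per cell cannot be told apart.

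The chemokines divided into a higher pair, a lower pair and a group near GFP. Cxcl10 and Ccl5 were at least 2-fold higher in the ezrinT567A-GFP mean, which makes 2 of the 10 where 0.973% of all genes were that much higher. Ppbp and Cxcl12 were at least 2-fold lower, again 2 of the 10, where 0.704% of all genes were that much lower. The remaining 6 differed from GFP by between -0.12 and 0.43. All 3 ezrinT567A-GFP arrays lay above GFP for 5 genes and below it for 3, against 32.5% and 25.6% of all genes. Since the choice of members used this comparison, nothing is read from these shares. The median difference of the 10 was 0.28 and that of all genes 0.03. Of all 18193 genes 10201 were higher and 7977 lower, which is the background for the splits of gene lists below.

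**Figure D1:**
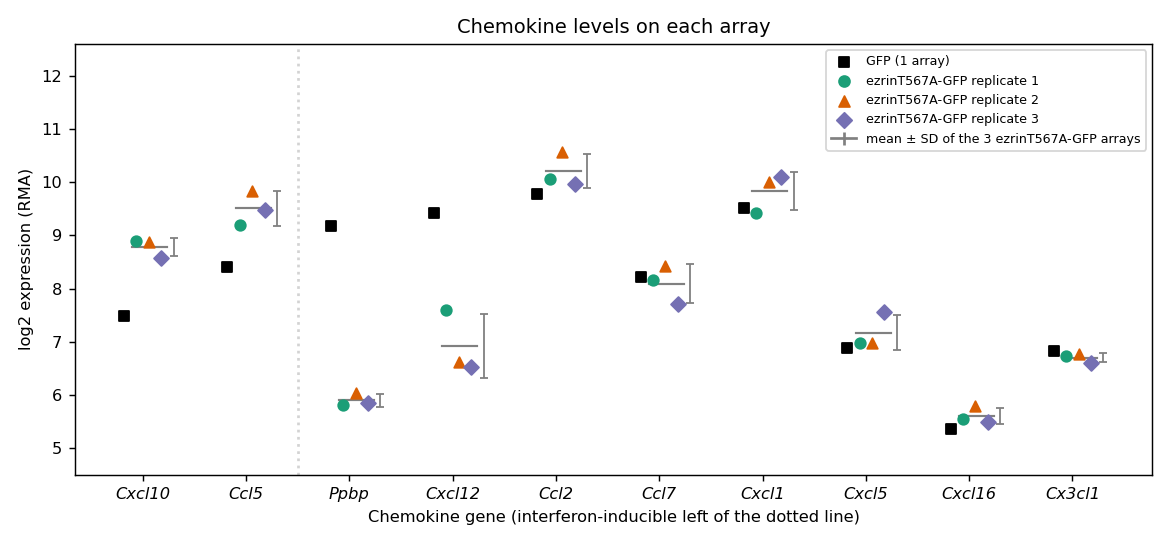
Log2 expression (y axis) of the 10 chemokine genes (x axis) on the GFP array (squares) and on the 3 ezrinT567A-GFP arrays (circles, triangles and diamonds), with the mean and SD of those 3 in grey. Cxcl10 and Ccl5 lie above the GFP square on all 3 arrays, while Ppbp and Cxcl12 lie far below it.

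Cxcl10 draws activated T cells and NK cells through Cxcr3. Its level was 7.49 in GFP and 8.89, 8.88 and 8.58 in replicates 1, 2 and 3. All 3 replicates were higher than GFP, and replicate 3 was the lowest of them. The mean of 8.78 ± 0.18 (SD, n = 3) gave a difference of 1.29, or 2.45-fold, and the separate replicates were 2.63-, 2.63- and 2.12-fold higher. Among all genes, 93 had a larger positive difference.

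Ccl5, which attracts T cells, monocytes and eosinophils, was at 8.41 in GFP and at 9.20, 9.84 and 9.48 in replicates 1, 2 and 3. Every replicate again lay above GFP, this time with replicate 2 highest and replicate 1 lowest. The mean was 9.51 ± 0.32 (SD, n = 3), a difference of 1.09 or 2.13-fold. Replicate 1 alone was 1.72-fold higher and replicate 2 alone 2.69-fold. The SD of Ccl5 exceeded that of 93.2% of genes, and 147 genes had a larger positive difference.

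Promoter sequences from RefSeq (GRCm38.p6) were matched by symbol for 5 of the 10 genes: Cxcl10, Ppbp, Cxcl12, Cxcl1 and Cx3cl1. In the 250 bases before each start, 4 motifs were searched. They were the interferon-stimulated response element core GAAANNGAAA, a kB form GGGNNTTNCC and the AP-1 site TGANTCA, each on both strands, and TATAAA on the gene's strand. Among 32851 promoter entries of the same length, 2.98%, 4.11%, 6.75% and 7.59% held them. No matches overlapped in the sequences printed here. The promoters of Cxcl10, as the interferon-inducible example, and of Cxcl1, a gene outside that class on the same chromosome, are shown with matches in capitals. They lie at chr5:92348890-92349139 on the minus strand and at chr5:90890995-90891244 on the plus strand.
Cxcl10: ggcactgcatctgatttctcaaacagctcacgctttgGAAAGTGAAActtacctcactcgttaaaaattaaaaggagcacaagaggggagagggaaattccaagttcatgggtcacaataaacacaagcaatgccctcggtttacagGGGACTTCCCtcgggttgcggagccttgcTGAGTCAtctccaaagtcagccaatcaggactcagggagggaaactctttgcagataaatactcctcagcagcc
Cxcl1: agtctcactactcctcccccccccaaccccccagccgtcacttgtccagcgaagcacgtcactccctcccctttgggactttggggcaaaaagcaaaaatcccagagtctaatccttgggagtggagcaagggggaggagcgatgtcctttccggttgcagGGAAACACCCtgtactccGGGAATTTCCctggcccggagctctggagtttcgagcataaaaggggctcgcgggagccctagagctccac

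The capitals in Cxcl10 are, in order, the interferon element GAAAGTGAAA at 204 to 213 bases before the start, the kB match GGGACTTCCC at 94 to 103 bases and the AP-1 match TGAGTCA at 68 to 74 bases. Those in Cxcl1 are kB matches at 80 to 89 bases, on the opposite strand, and at 62 to 71 bases. The interferon core was not found in this window of Cxcl1. These are matches of letters and not shown binding sites. Sites spelled otherwise, such as other kB forms, were not searched and stand in lower case where present.

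The Cxcr2 ligands Ppbp, Cxcl1 and Cxcl5, which recruit neutrophils, differed widely from each other. Ppbp is the precursor of a chemokine best known from platelet granules. It stood at 9.17 in GFP and at 5.81, 6.04 and 5.85 in replicates 1, 2 and 3. The replicates lay close together, more than 8-fold below GFP on every array. Their mean was 5.90 ± 0.13 (SD, n = 3), the difference -3.27, and the fold 9.66, with 8.74-fold in replicate 2 and 10.3-fold in replicate 1. Of all genes, 5 had a more negative difference.

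Cxcl1, an early neutrophil attractant, was at 9.51 in GFP and at 9.43, 10.00 and 10.09 in replicates 1, 2 and 3. Replicate 1 lay slightly below GFP and the other two above it, so the groups overlapped. The difference of 0.33 was smaller than the SD of the 3 replicates, 0.36. Its further probe sets also placed replicate 1 below GFP and the others above, with differences of 0.32 and 0.19.

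Cxcl5 (LIX), the neighbour of Ppbp on chromosome 5, was at 6.88 in GFP and at 6.99, 6.98 and 7.56 in replicates 1, 2 and 3. All 3 replicates were above GFP, but replicates 1 and 2 only by 0.11 and 0.10. The difference of 0.29 was again below the SD of 0.33.

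In gene order the measured genes of this cluster are Cxcl5, Ppbp, Pf4, Cxcl3, Cxcl15, Cxcl1 and Cxcl2. Around Ppbp, whose difference was -3.27, the other 6 ranged from -0.11 (Cxcl15) to 0.33 (Cxcl1). Pf4, the other chemokine typical of platelets, was dim at 3.35 in GFP and at 3.36, 3.28 and 3.28 in replicates 1, 2 and 3. Cxcl3 and Cxcl2 were also dim, below 2.4 on every array. The Ppbp promoter, at chr5:90768268-90768517 on the plus strand, is printed because its gene had the most negative difference among these chemokines.
Ppbp: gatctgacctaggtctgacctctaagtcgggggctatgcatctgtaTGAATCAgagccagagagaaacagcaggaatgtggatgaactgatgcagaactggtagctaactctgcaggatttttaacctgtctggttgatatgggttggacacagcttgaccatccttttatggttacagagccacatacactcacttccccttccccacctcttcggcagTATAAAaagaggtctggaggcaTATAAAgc
The capitals are an AP-1 match at 198 to 204 bases before the start and TATAAA at 25 to 30 and at 3 to 8 bases. Neither the interferon core nor the kB form was found in this window.

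**Figure D2:**
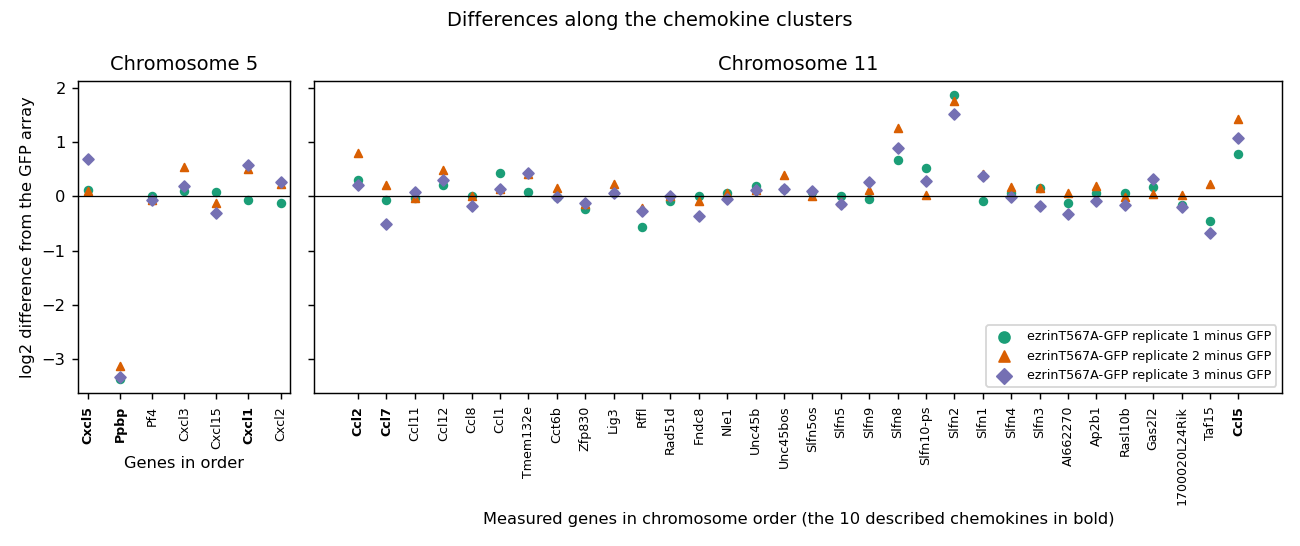
Log2 difference of each ezrinT567A-GFP array from the GFP array (y axis) for measured genes in chromosome order (x axis), from Cxcl5 to Cxcl2 on chromosome 5 and from Ccl2 to Ccl5 on chromosome 11. Ppbp stands alone near -3.3 beside neighbours near 0.

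Markers of other cell types were read beside Ppbp and Cxcl12. Of 9 measured platelet and megakaryocyte markers 5 were higher and 4 lower, with a median difference of 0.01. Their summed level, on the log2 scale, was 7.34 in GFP and 7.34 to 7.48 in ezrinT567A-GFP. Epithelial markers were lower, as Ppbp was. Of 8 measured, 7 were lower, all 7 on every array, where 25.6% of all genes were lower on every array. The median of these markers was -1.67, and their summed level was 8.65 in GFP and 6.76 to 7.07 in ezrinT567A-GFP. Krt5, a basal keratin, was at 6.73 in GFP and 4.72, 4.75 and 4.57 in replicates 1, 2 and 3. Krt14, its partner, was at 7.07 against 3.80, 4.83 and 4.15. Further probe sets of Krt14 ranged up to a difference of 0.08. The part of epithelial cells in the Ppbp and Cxcl12 differences was not tested.

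Cxcl12 is the ligand of Cxcr4 and of the scavenging receptor Ackr3, and in bone it is made by osteoblast-lineage and stromal cells. Its brightest probe set was at 9.41 in GFP and at 7.61, 6.62 and 6.53 in replicates 1, 2 and 3. All 3 replicates were lower, but replicate 1 lay about 1 log2 unit above the others. The mean was 6.92 ± 0.60 (SD, n = 3), the difference -2.50 and the fold 5.64, with 3.50-fold in replicate 1 and 7.41-fold in replicate 3. It was the 1 gene of the 10 with a pair of ezrinT567A-GFP arrays at least 2-fold apart, and its SD exceeded that of 99.3% of genes. Of all genes, 13 had a more negative difference.

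A second Cxcl12 probe set had the same shape, at 7.88 in GFP and 5.80, 4.65 and 4.51 in replicates 1, 2 and 3, with a difference of -2.89. The remaining Cxcl12 probe set was dim, at 4.32 in GFP and 4.17, 4.10 and 3.77, and its difference was -0.31. All of the Cxcl12 probe sets were thus lower on every ezrinT567A-GFP array, by unequal amounts. The Cxcl12 promoter, at chr6:117168285-117168534 on the plus strand, held no match to any of the 4 motifs and was 64.4% G and C, against 48.0% for Cxcl10 and 47.2% for Ppbp. It is shown for contrast with the TATA-bearing Ppbp promoter.
Cxcl12: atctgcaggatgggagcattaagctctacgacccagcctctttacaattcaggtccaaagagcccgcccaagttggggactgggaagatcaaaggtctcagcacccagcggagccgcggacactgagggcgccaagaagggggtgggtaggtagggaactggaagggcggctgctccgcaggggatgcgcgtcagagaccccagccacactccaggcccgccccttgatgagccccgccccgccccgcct

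**Figure D3:**
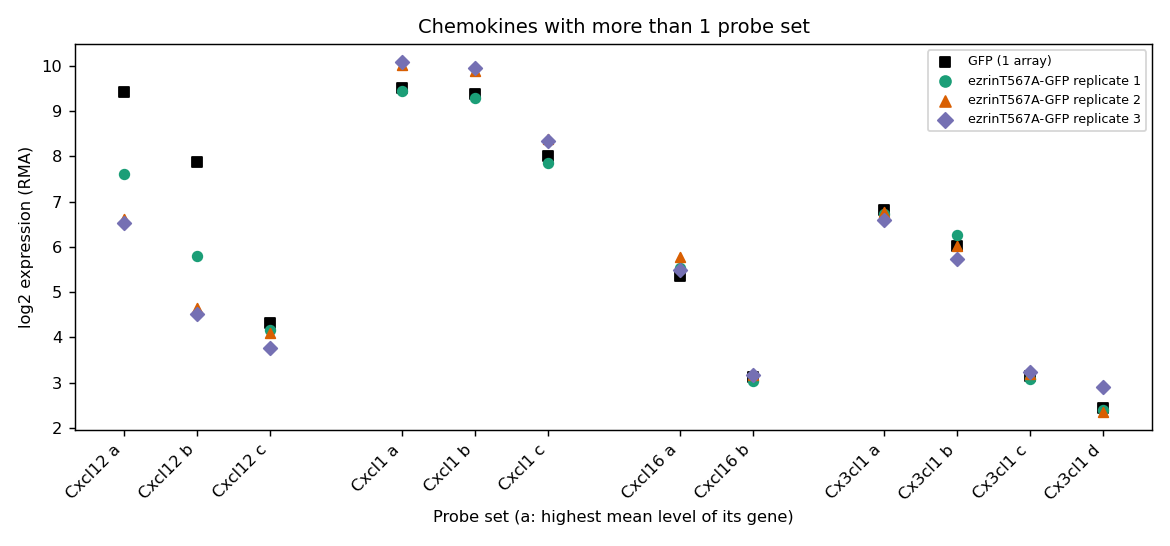
Log2 expression (y axis) of every probe set of the 4 chemokines with more than 1 (x axis, a being the brightest of its gene), on the GFP array (squares) and the 3 ezrinT567A-GFP arrays. On Cxcl12 a and b the GFP square lies far above the other symbols and on Cxcl12 c it does not, and the probe sets of Cx3cl1 stay near GFP.

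Ccl2 and Ccl7, neighbours on chromosome 11, bring monocytes to tissue through Ccr2. Ccl2 was at 9.77 in GFP and at 10.07, 10.57 and 9.97 in replicates 1, 2 and 3. Every replicate lay above GFP, with replicate 2 highest. The difference was 0.43 with an SD of 0.32 over the replicates, or 1.35-fold.

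Ccl7 was at 8.22 in GFP and at 8.16, 8.42 and 7.71 in replicates 1, 2 and 3. Replicate 2 lay above GFP and the others below it. The difference of -0.12 was smaller than the SD of 0.36, and without replicate 3 it became 0.07. Of the other measured chemokines that follow them in gene order, Ccl11 and Ccl12 were below 2.5 on every array and Ccl8 was at 4.58 in GFP.

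Cxcl16 and Cx3cl1 are made as transmembrane proteins and released by the proteases Adam10 and Adam17. Cxcl16, the ligand of Cxcr6, was at 5.35 in GFP and at 5.54, 5.78 and 5.50 in replicates 1, 2 and 3. All 3 replicates were higher by its brighter probe set, with a difference of 0.26 (SD 0.15), whereas its dim probe set, near 3.1 on all arrays, gave -0.01. Cx3cl1, the ligand of Cx3cr1, was at 6.82 in GFP and at 6.73, 6.77 and 6.60 in replicates 1, 2 and 3. All 3 were slightly lower by this probe set, with a difference of -0.12 (SD 0.09), while the other Cx3cl1 probe sets gave -0.01, 0.03 and 0.10.

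The interferon-inducible genes were set against the other 8 on each array. The median of Cxcl10 and Ccl5 minus the median of the others was 1.16, 1.26 and 1.12 in replicates 1, 2 and 3 (SD 0.07, n = 3), and 1.12 when computed from the mean differences. The replicates were all compared with the same GFP array, so this SD holds none of the variation of GFP. On every array both interferon-inducible genes were higher than GFP. The others were spread on both sides, with 3, 5 and 4 of the 8 above GFP in replicates 1, 2 and 3. Their median differences were -0.07, 0.15 and -0.04, and their range on the mean was -3.27 to 0.43.

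**Figure D4:**
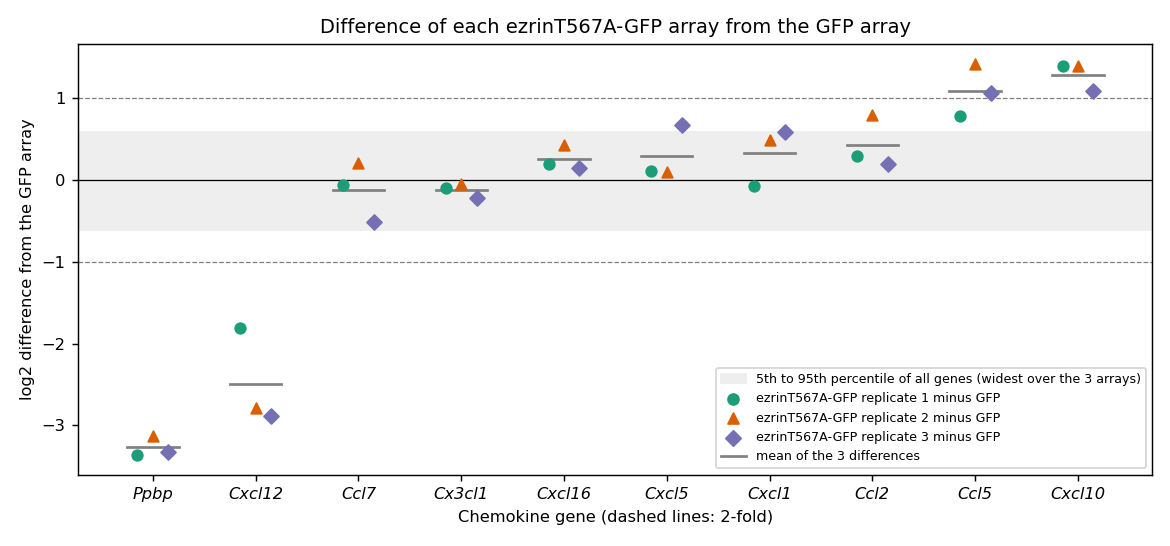
Log2 difference of each ezrinT567A-GFP array from the GFP array (y axis) for the 10 chemokines in order of their mean difference (x axis), with the 5th to 95th percentile of all genes shaded and dashed lines at 2-fold. Ppbp and Cxcl12 lie below the band and Cxcl10 and Ccl5 above it on every array.

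The replicates differed among themselves more for these chemokines than for the median gene, whose SD was 0.13, in 8 of the 10 genes, Ppbp and Cx3cl1 being the exceptions. Replicate 2 held the highest ezrinT567A-GFP value for 6 of the 10 genes, and replicate 3 the lowest for 6. Replicate 2 also had the strongest hybridization spike-in signal (11.1, against 10.1 and 10.4 in replicates 1 and 3 and 9.32 in GFP) and the strongest 18S rRNA signal (11.3, against 7.65, 7.76 and 9.09). The part of these technical signals in the chemokine values was not tested. Array medians ran from 3.85 to 3.89.

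The other chemokines on the arrays were mostly dim. Of 28 listed genes 25 were measured and 3 were brighter than the median gene. In ezrinT567A-GFP 17 were higher and 8 lower, and the median difference was 0.13, or 0.07 without replicate 2. Cxcl11, a further interferon-inducible Cxcr3 ligand that lies next to Cxcl10 on chromosome 5, was at 5.45 in GFP and at 7.15, 6.95 and 6.61 in replicates 1, 2 and 3. All 3 replicates were higher, and the difference of 1.45 (SE 0.24, 2.72-fold) was the only one of at least 2-fold in this list. The limma adjusted p over all genes was 0.218, which missed the threshold, and a second Cxcl11 probe set gave 0.17.

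Cxcl9, the third Cxcr3 ligand and likewise interferon-inducible, was dim and near GFP. It was at 3.65 in GFP and 3.91, 3.84 and 3.58 in replicates 1, 2 and 3, with a difference of 0.13. Ccl9, a myeloid attractant, was bright and near GFP, at 10.17 against 10.12, 10.40 and 10.15. Ccl3 and Ccl12, each with all 3 replicates above GFP, had differences of 0.42 (SE 0.16) and 0.33 (SE 0.14) from levels below 2 in GFP. Ccl1, likewise dim, differed by 0.23 (SE 0.16). The adjusted p of limma for Ccl3, Ccl12 and Ccl1 lay between 0.362 and 0.594.

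With limma, 0 of 18193 genes passed an adjusted p of 0.05 in either direction, and 2540 (14%) had an unadjusted p below 0.05, 1357 of them (7.46%) on the higher side. The lowest adjusted p was 0.0805 over all genes and 0.146 over the genes of the pathway lists. The pathway genes below therefore differed without passing. Other settings of the test called up to 34 genes, that number after quantile normalization.

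Signalling chemokine receptors were dim and evenly divided. Of 16 measured 8 were higher and 8 lower, 0 by 2-fold, and 1 was brighter than the median gene. That one, Ccr2, the receptor for Ccl2 and Ccl7, was at 5.76 in GFP and at 5.30, 5.18 and 5.37 in replicates 1, 2 and 3. The difference was -0.47 (SE 0.14, limma adjusted p = 0.296), and further Ccr2 probe sets ranged up to 0.52. Cxcr4, the signalling receptor of Cxcl12, was at 1.82 in GFP and between 1.90 and 2.13 in the replicates, near the bottom of the scale. Cxcr3, the receptor of Cxcl10, was dim with a difference of 0.26 (SE 0.11), and Ccr9 with 0.28 (SE 0.14).

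Among the atypical receptors, which bind chemokines without classical G protein signalling, Ackr3 was lower. This receptor for Cxcl12 and Cxcl11 was at 8.43 in GFP and at 6.30, 6.55 and 6.97 in replicates 1, 2 and 3. Every replicate lay below GFP, with replicate 1 the lowest, whereas replicate 1 was the highest of the 3 for Cxcl12. The difference was -1.82 (SE 0.29, 3.54-fold, limma adjusted p = 0.209). Of the other 4, Ccrl2, which presents chemerin, was 0.43 higher (SE 0.16), Ackr4 differed by -0.42 (SE 0.25) and Ackr2 by 0.05 (SE 0.13).

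Of the 8 pathway lists, the interferon factors and response genes lay furthest from GFP by their median. Of 22 measured interferon factors and response genes 19 were higher, all 19 on every array (32.5% of all genes). At least 2-fold higher were 15 of the 22 (0.973% of all genes). The list's median difference was 1.48 on the mean and 1.32, 1.71 and 1.52 in replicates 1, 2 and 3. This difference was already known when the chemokines were chosen and is not independent support. Ifih1, the cytosolic RNA sensor MDA5, was at 7.67 in GFP and 9.02, 9.42 and 9.16 in replicates 1, 2 and 3. Irf7, a factor that drives interferon genes, differed by 1.66 (SE 0.28), Ifit3 by 2.70 (SE 0.42) and Irf1 by 0.41. Stat2, a subunit of the interferon-activated complex ISGF3, was at 4.62 in GFP and 5.97, 7.26 and 6.63 in replicates 1, 2 and 3. Replicate 2 was highest for Stat2, Irf7, Ifit3 and Ifih1, as it was for Ccl5 but not for Cxcl10. Not every gene of the list had that order. Oasl1 was highest in replicate 1, as Cxcl10 was, and Mx2 in replicate 3. The adjusted p of limma for Stat2, Irf7, Ifit3 and Ifih1 lay between 0.187 and 0.28.

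The type I interferon receptor subunits were higher too. Ifnar2 differed by 0.68 (SE 0.12), Ifnar1 by 0.62 (SE 0.11) and Il10rb, a subunit shared with interleukin 10 and interferon lambda signalling, by 0.77 (SE 0.12). Probe sets ranged from 0.27 to 0.68 for Ifnar2, from 0.05 to 0.62 for Ifnar1 and from -0.04 to 0.77 for Il10rb. Ifnb1 itself, interferon beta, was dim at 3.58 in GFP and at 4.04, 4.52 and 4.08 in replicates 1, 2 and 3, a difference of 0.63 (SE 0.23). Ifngr1, a subunit of the interferon gamma receptor, was lower by this measure, at -0.42. In this list of 8 measured genes 6 were higher and 2 lower, with a median of 0.41, or 0.27 with the mean of probe sets and 0.20 with _at probe sets alone.

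NF-kB proteins and targets lay close to GFP by their median. Of 25 measured 17 were higher and 8 lower, 0 by 2-fold. The median was 0.15, or 0.05 with the mean of probe sets and 0.09 with _at probe sets alone. On every array 12 were higher and 3 lower, against 32.5% and 25.6% of all genes. Nfkbib, an inhibitor of NF-kB, differed by 0.74 (SE 0.15, a further probe set -0.02). Tnfaip3, the feedback inhibitor A20, differed by 0.60 (SE 0.17, probe sets 0.36 to 0.60). Tnfaip2 differed by 0.45 (SE 0.10, probe sets 0.10 to 0.55) and Birc3 by 0.34 (SE 0.11, a further probe set -0.22). Nfkbia, the prompt NF-kB target that encodes its inhibitor, was at 10.94 in GFP and at 10.33, 10.65 and 10.58 in replicates 1, 2 and 3. The difference was -0.42, and the Nfkbia probe sets ranged from -0.42 to -0.06. Il6 differed by 0.0005, from a dim level.

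**Figure D5:**
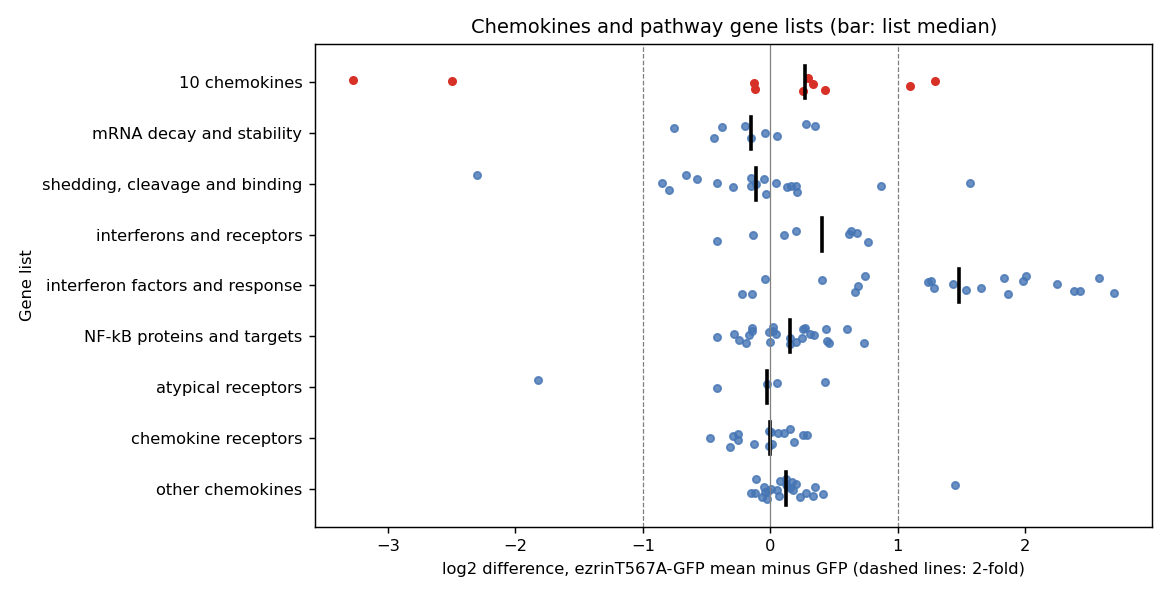
Log2 difference of ezrinT567A-GFP mean minus GFP (x axis) for every measured gene of the 8 pathway lists and for the 10 chemokines (y axis), with each list's median as a black bar and dashed lines at 2-fold. The interferon list is centred at 1.48, and the medians of the receptors, NF-kB genes and other chemokines lie near 0.

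Proteins that release, cleave or hold chemokines differed in both directions, 7 of 19 measured genes higher and 12 lower, with a median of -0.11, or -0.05 with the mean of probe sets. Mmp2, a gelatinase, differed by 1.57 (SE 0.24), from 5.19 in GFP to 6.99, 6.47 and 6.81 in replicates 1, 2 and 3. Its activating protease Mmp14 differed by 0.87 (SE 0.12, probe sets 0.24 to 0.87). Mmp13, a collagenase, was lower, at 8.85 in GFP and 6.63, 6.38 and 6.63 in the replicates. Mmp3 was dim, at 4.98 in GFP and 4.18 on each ezrinT567A-GFP array, a difference of -0.79 (SE 0.11). The SD of its replicates was 0.0, so this SE came from limma's moderation alone. Adam10, which sheds Cx3cl1 and Cxcl16, was at 9.07 in GFP and at 8.20, 8.16 and 8.31 in replicates 1, 2 and 3, but its probe sets ranged from -0.85 to 0.01. Adam17 differed by -0.15, and Dpp4, which trims Cxcl12 and Cxcl10, was dim at 3.69 in GFP with 0.20. The limma adjusted p of Mmp2, Mmp14, Mmp13, Mmp3 and Adam10 lay between 0.146 and 0.2.

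Regulators of chemokine mRNA decay showed 3 of 9 genes higher and 6 lower, with a median of -0.15, or -0.09 without replicate 2 and -0.32 with _at probe sets alone. Zfp36l2, which promotes decay of AU-rich mRNAs, was at 10.84 in GFP and at 10.06, 10.05 and 10.17 in replicates 1, 2 and 3, a difference of -0.75 (SE 0.10, further probe sets up to -0.01). Zfp36, tristetraprolin, differed by 0.28 (SE 0.13), the stabilising protein gene Elavl1 by -0.38 (SE 0.11) and Tia1 by -0.44 (SE 0.20, probe sets -0.44 to 0.27).

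Most leukocyte markers were dim, with Csf1r and Cd14 as the exceptions. Ptprc, the pan-leukocyte CD45, was at 2.22 in GFP and 2.10 to 2.13 in the replicates, below the lower quartile of the arrays (2.55 to 2.62), and Adgre1, a macrophage marker, was between 2.64 and 2.76. T and NK cell markers numbered 9 measured, 0 of them brighter than the median gene, with a summed log2 level of 6.88 in GFP and 6.88 to 7.04 in ezrinT567A-GFP. Of 9 macrophage and monocyte markers 6 were higher and 3 lower, with a summed level of 11.99 in GFP and 12.02 to 12.33, most of it from Csf1r (11.91 in GFP, 11.89 to 12.22 in the replicates). Of these 9, Cd14, a monocyte marker and co-receptor for lipopolysaccharide, had the largest difference. It was at 7.16 in GFP and at 8.12, 8.18 and 8.01 in replicates 1, 2 and 3, a difference of 0.94 (SE 0.13, limma adjusted p = 0.187). The part of such cells in the chemokine values was not tested. Neutrophil markers summed to 6.07 against 5.998 to 6.105 and endothelial markers to 5.50 against 5.39 to 5.58. The osteoblast markers Col1a2 (12.28 in GFP, 12.36 to 12.45 in the replicates) and Col1a1 (11.31, 11.18 to 11.41) were bright on all arrays, while Ibsp and Alpl were dim. Of 10 osteoblast markers 6 were measured, with a summed level of 13.31 in GFP and 13.28 to 13.35.

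The genes most like Ppbp, Cxcl10 and Ccl5 were found by the root mean square distance of their 3 differences from GFP, over 9096 genes of above-median level. Nearest to Ppbp was Hsd11b1, which regenerates active glucocorticoid, at 9.31 in GFP and 5.87, 6.07 and 5.92 in replicates 1, 2 and 3 (distance 0.09). Amhr2 (0.27), Krt6a (0.43), Itga6 (0.84) and Cxcl12 itself (0.95) followed. The level was the mean of the 4 arrays, so genes low on the 3 ezrinT567A-GFP arrays could be left out. Perp, Krt14 and Krt17 were left out, with differences of -2.79, -2.80 and -2.54 by their brightest probe sets. Those of Itga6 and Cxcl12 were -2.47 and -2.50. The order among all genes was therefore not established. Nearest to Ccl5 were Trim21 (0.08), Sp100 (0.09), Trpv2 (0.10), Irgm1 (0.11) and Xaf1 (0.11). Of these, Trim21, Sp100, Irgm1 and Xaf1 are known as interferon-induced genes, though none is in the interferon list above. The share of interferon-induced genes among all candidates was not counted, so nothing is read from this. Nearest to Cxcl10 were Scd2 (0.14), Arap2 (0.14), Dhcr7 (0.16), Jund (0.17) and Ica1 (0.17), with lipid synthesis enzymes in Scd2 and Dhcr7. These distances rest on the same 4 arrays, and all differences share the GFP array.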

How the data were processed

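Total RNA from 4 K7M2 samples was labelled as biotinylated cRNA by the one-cycle Affymetrix assay, per the labels' protocols. The authors deposited log2 values for each probe set, for which the submitters' processing notes name RMA; the log2 scale was read from their range (1.18 to 13.7). Its software is not given in the sources used here. The method gives all arrays about the same distribution, which hides any change in total RNA per cell, and the lowest values represent background. Detection calls were not used here, and the number of arrays limits the precision.

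The platform annotation named the probe sets. Of 45101, 34958 had 1 symbol, 932 several and 9211 none listed; gene IDs of 34754 matched a GRCm38.p6 gene table, changing 0 symbols. Control probe sets and those without 1 symbol were left out. Each of 18193 genes was read from its brightest probe set by the mean of the 4 arrays. Groups came from the sample titles, and 3 ezrinT567A-GFP arrays were compared with 1 GFP array. limma 3.58.1 in R 4.3.3 (lmFit, eBayes with a mean trend, two-sided) was used with Benjamini-Hochberg adjustment over all genes at 0.05. It had 2 residual degrees of freedom, all from ezrinT567A-GFP, and assumed that GFP varies like them. SE is limma's moderated standard error. Nothing in the labels says the replicates were separate cultures, so p-values reflect only how these arrays vary, which may be technical. The fit was also run on simulated arrays in which GFP varied like the others, so that run could not check this assumption about GFP.

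The members, lists and motifs were chosen with earlier results of these data known. Named were all 10 members with every probe set, and up to 4 genes per list with the smallest p and those at least 2-fold apart (a selection of these is printed). Also named were the 5 genes of above-median level nearest in pattern to each of Ppbp, Cxcl10 and Ccl5. Cxcl9, Ccl9, Irf1, Ifngr1, Nfkbia, Il6, Adam17, Dpp4, Adgre1, Ibsp and Alpl were named after their values were seen. Lists are described by counts and medians without a set test. Alternatives were other normalizations, probe set summaries, priors and filters, and leaving out each replicate. Figures used matplotlib 3.10.9 in Python 3.11.15.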

Additional observations from a re-analysis of the deposited data

How the results depend on the processing

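The count of 0 genes past limma's threshold depended on the processing: 34 after quantile normalization, 30 after median centring, 6 with the mean of probe sets, 3 without dim genes and 9 with a robust prior. It was 0 with _at probe sets alone, without a mean trend and without each replicate in turn. Genes at least 2-fold apart numbered 305, and 227 to 362 under the alternatives (298 to 362 without a replicate). The interferon-inducible minus other difference of 1.12 ran from 1.08 to 1.17 without a replicate. It was 1.22 with Cxcl10 alone, 1.02 with Ccl5 alone, 1.78 against the mean of the others and 0.94 without Ppbp among them. Of 78 alternative values for the 10 chemokines, 71 stayed within the spread between replicates, among them Ccl7, which changed sign without replicate 3 (0.07), and 3 moved beyond it. The other 4 also changed sign: Cxcl16 by its dim probe set (-0.0104), and Cx3cl1 with the mean of probe sets (0.0004) and by its further probe sets (0.0309 and 0.0994). Cxcl12 was -1.90 with the mean of probe sets. The platelet marker median of 0.01 was -0.0135 after quantile normalization, -0.0124 after centring and -0.0016 to 0.0234 without a replicate. Of 105 alternative medians of the gene lists 76 stayed within the spread between replicates, 26 moved beyond it, and 3, those of the platelet markers, also changed sign. Medians near 0 changed sign within or beyond that spread for chemokine receptors (-0.0037, and 0.0198 without replicate 1), neutrophil, endothelial and osteoblast markers. The atypical receptor median of -0.03 was -0.35 with _at probe sets alone. The cause of these changes was not tested. No paired analysis was possible because GFP has 1 array with no replicate number.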

Other observations

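The measured genes between Ccl2 and Ccl5 on chromosome 11 include the schlafen family, regulators of immune cell growth and antiviral defence, chosen here because of their values. Slfn2 was at 6.04 in GFP and at 7.90, 7.80 and 7.56 in replicates 1, 2 and 3, all above GFP, with a difference of 1.71. Slfn8 was at 6.03 in GFP and at 6.70, 7.28 and 6.91, a difference of 0.94. Slfn9, near them, differed by 0.11, and the remaining schlafens there were below 5 on every array.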
